A study of Vigna unguiculata with 30 samples.

Results

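Middle leaves of the cowpea canopy were compared with bottom leaves at the R1 stage in 10 of the 30 libraries of the series. The titles of the samples place 5 of these libraries in the middle and 5 at the bottom of the canopy. Cowpea (Vigna unguiculata) is a grain legume, and every plant was of the line IT97K-499-35, planted in the ground of a greenhouse and lit with supplemental lamps. Punches of leaf were taken 5.5 weeks after planting at R1 and 6.5 weeks after planting at R3. The middle R1 and bottom R1 groups thus share genotype, site, stage and time, and carry no treatment, mutation or transgene. The labels set them apart by canopy position alone, so leaf age and light, which go with position, cannot be told apart in these data. The other libraries, 5 each of top R1, middle R3, bottom R3 and top R3 leaves, entered the same statistical fit and are used below to place the middle and bottom leaves. The titles call the replicates biological and do not say whether each had plants of its own, so p-values measure the spread between these samples, part of which may be technical.

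As background, the leaves at the bottom of a closing canopy are the oldest and stand in the shade of those above, where light is weaker and poorer in red relative to far-red light. Leaf nitrogen and photosynthetic capacity commonly follow that gradient of light, and the lowest leaves are the first to turn to senescence, in which nitrogen is withdrawn from chloroplast proteins and moved to growing organs. In legumes this withdrawal becomes important once flowers and pods form. None of these processes was measured here, and as gene functions are not known here, none was read from the RNA either.

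The 10 libraries held 11.45 to 17.42 M counts each, and the 30 together 10.49 to 17.42 M. Of 31948 gene models, 20284 passed the filter on low counts and were tested. Levels are CPM (counts per M), with each library's size corrected by TMM, the trimmed mean of M values, and differences are log2 fold changes of middle over bottom from the quasi-likelihood method of edgeR, with Benjamini-Hochberg adjusted p over all tested genes. A gene is called at an adjusted p under 0.05. Values of single libraries follow replicates 1 to 5, and means are given ± SD (n = 5). The files do not pair gene identifiers with product names, so genes are given by identifier with the coordinates of the count table, their functions are not stated, and the labelled tissue was not checked against marker genes. A punch is a bulk sample, in which fewer cells of a type and less RNA per cell cannot be told apart.

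Between middle and bottom leaves 1581 genes were called, 7.79% of those tested. The 1015 genes higher in middle leaves (5% of tested genes) outnumbered the 566 lower ones (2.79%). The higher genes also had the larger median log2 fold change, 1.19 (quartiles 0.79 and 2.14), against -0.77 (quartiles -1.52 and -0.49) for the lower genes and -0.02 over all tested genes. The 2 lists differ in level, with a median of the mean CPM of 14.5 for the higher and 27.5 for the lower genes. Within classes of level, given below, their medians lay closer in size. At least 2-fold changes were found in 604 higher genes (2.98%) and 224 lower genes (1.1%). The balance of higher to lower genes depends on the scaling: with library size alone in place of TMM it was 789 higher and 1861 lower, and the median log2 fold change of all genes moved by -0.19. TMM factors averaged 0.97 ± 0.0618 in middle and 1.11 ± 0.0746 in bottom libraries (SD, n = 5 each; two-sided exact permutation test over 252 assignments, p = 0.00794, the smallest it can give). They were lower in middle leaves in 5 of 5 pairs of equal replicate number, which are taken as pairs below. Exchange within pairs gave an exact two-sided p of 0.0625, the smallest that 32 exchanges allow. With 5 pairs that test cannot fall under the limit used for calls, whatever the data, so no conclusion is drawn from it. The within-pair test was added after seeing the data.

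The higher genes took a large share of the RNA of middle leaves. They held 14.1, 16.8, 14.2, 13.3 and 12.6% of the counts of middle replicates 1 to 5, against 8.11, 4.7, 5.56, 10.1 and 8.63% of bottom replicates 1 to 5. The 2 groups did not overlap, which the choice of the genes on these libraries favours, so the shares are a description. The lower genes held 2.46, 2.05, 2.49, 2.49 and 2.74% in middle and 5.07, 7.13, 7.07, 3.62 and 3.94% in bottom libraries. In both lists bottom replicates 2 and 3 stood farthest from the middle libraries and bottom replicate 4 nearest to them.

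**Figure D1:**
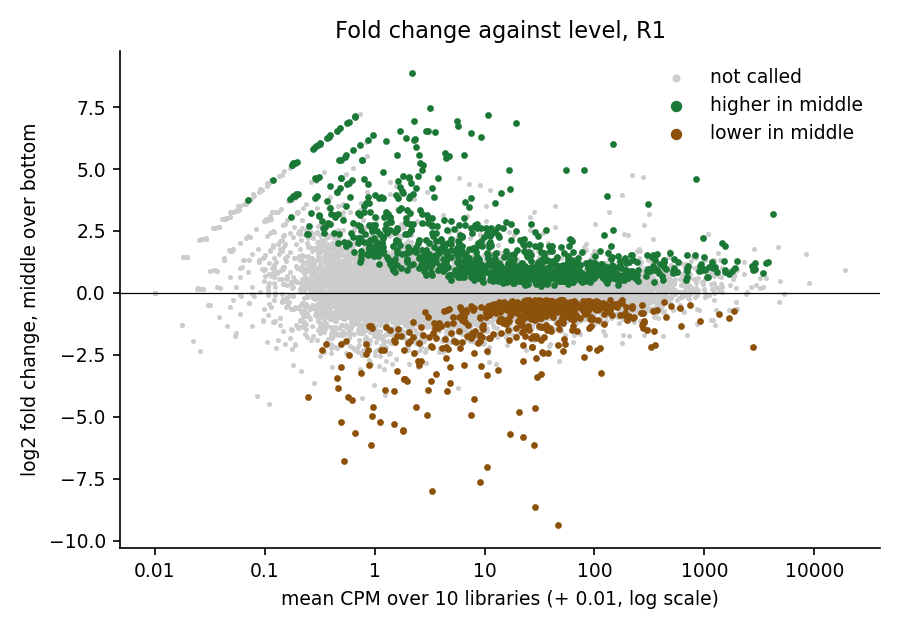
Each point is 1 of the 20284 tested gene models, with its mean CPM over the 10 libraries on the horizontal log axis (0.01 CPM added) and its log2 fold change of middle over bottom on the vertical axis. The 1015 higher and 566 lower genes are coloured, and the genes with the steepest changes lie mostly under 10 CPM. At few counts small changes are hard to call, which favours this among the coloured genes.

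Among called genes, few counts and steep changes went together. The limit for calls favours this, as a small change is hard to call at few counts, so the medians by level are a description. Among the 2157 tested genes with a mean under 1 CPM, 127 were higher and 25 lower, with median log2 fold changes of 3.25 and -2.99. Between 1 and 10 CPM there were 315 higher and 110 lower genes of 6167, with medians of 1.73 and -1.78. Between 10 and 100 CPM there were 404 higher and 365 lower genes of 10238, with medians of 0.83 and -0.63. At 100 CPM or more the medians were 0.94 and -0.74. The share of higher genes was largest at 100 CPM or more, where 169 of 1722 genes were higher (9.81%) and 66 lower (3.83%). Called genes had a median of 5 exons, as had all tested genes, and a median length of 1852 bases when higher and 1858 bases when lower, against 1949 bases over all tested genes.

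On the first principal component of the 10 libraries (37.6% of the variance), the middle libraries scored -74.6, -43, -48.3, -57.2 and -12.3 and the bottom libraries 30.1, 97.8, 83.7, -3.1 and 26.8, in the order of their replicate numbers. The groups did not overlap on it, with middle replicate 5 and bottom replicate 4 closest to each other. The second component (20.8%) ordered the replicate numbers and not the positions: middle replicates 1 to 5 scored 65.3, -35.3, 23.7, -1.9 and -63.1, and bottom replicates 48.7, 1.5, 39.7, -26.6 and -52. Genes varied more among bottom than among middle libraries. The median SD of log2 CPM was 0.29 for middle and 0.36 for bottom libraries, with the larger SD in middle leaves for 8219 genes and in bottom leaves for 12054.

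**Figure D2:**
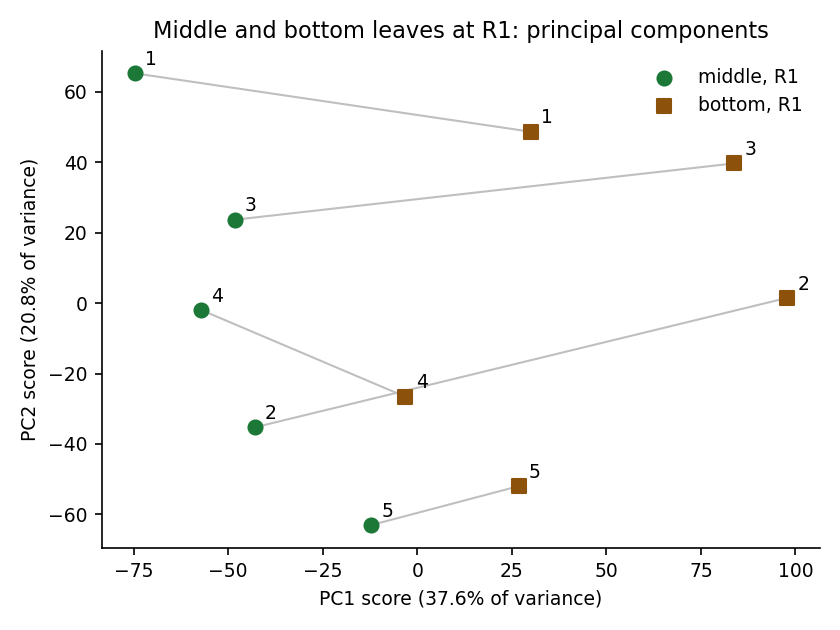
Scores of the 5 middle (circles) and 5 bottom libraries (squares) at R1 on the first and second principal components, in arbitrary units, with numbers giving the replicate and lines joining equal numbers. Middle libraries lie at -12.3 or less on the first component and bottom libraries at -3.1 or more, and equal numbers lie at similar heights in most pairs.

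Equal replicate numbers shared deviations from their group means (correlations across genes of 0.52, 0.24, 0.19, 0.31 and 0.35 for numbers 1 to 5), so each number was also taken as a pair. The size of the difference varied widely between pairs. In pair 2, 3177 genes were at least 2-fold higher and 1961 at least 2-fold lower in the middle leaf, whereas pair 4 had 1056 and 1028 such genes and pair 5 had 1390 and 730. The median log2 difference of the 1015 higher genes was 1.09, 1.86, 1.45, 0.58 and 0.7 in pairs 1 to 5, and that of the 566 lower genes -0.77, -1.01, -0.98, -0.39 and -0.39. The direction held in nearly all genes of every pair: the higher genes were higher in 96.7 to 100% of cases and the lower genes lower in 90.1 to 99.8%. All 5 pairs were higher in 954 of the 1015 genes and lower in 480 of the 566. Over all tested genes, every pair was higher in 2978 genes (14.7%) and lower in 2797 (13.8%), and as the calls were made on the same libraries, these counts are a description.

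With the replicate number as a block in a fit of the 10 libraries, 667 genes were higher (3.29%) and 604 lower (2.98%) in middle leaves. Of the 1271 genes, 699 were called in the fit of all 30 libraries too, 431 higher and 268 lower, which is 44.2% of the 1581 calls of that fit and 55.0% of those with the block. None of the 699 changed direction between the fits. The block lowered the common dispersion to 0.0706, against 0.135 for the same 10 libraries without it. The paired count varied widely with the pair left out, as it was 1 without pair 1, 43 without pair 2, 52 without pair 3, 415 without pair 4 and 1794 without pair 5. Leaving out a pair also lowers the residual degrees of freedom from 4. In these edgeR fits an unadjusted p under 0.05 was reached by 6397 genes with all 5 pairs and by 4213 to 6943 without 1 pair. How much of the change in count comes from having fewer pairs was not tested.

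**Figure D3:**
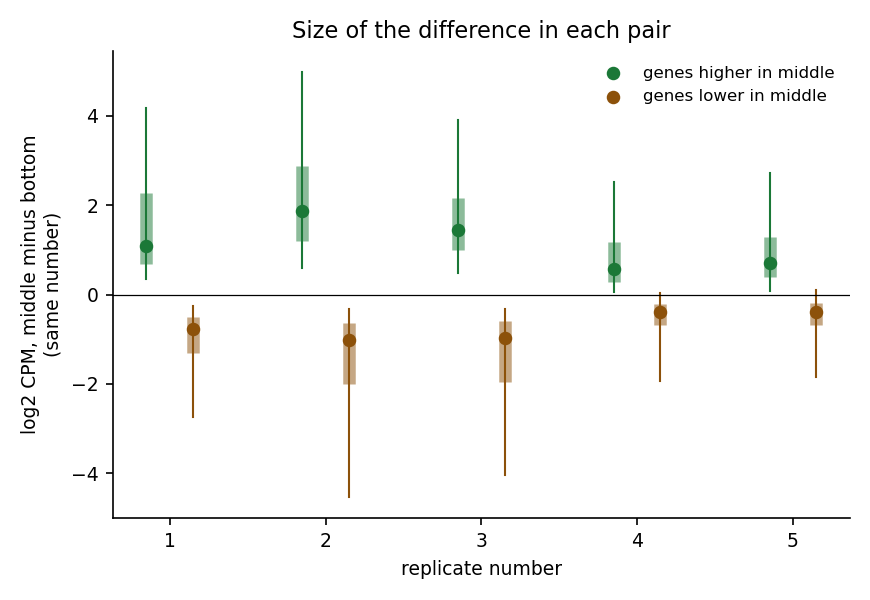
Log2 CPM of the middle minus the bottom library of equal number (vertical axis) in each of the 5 pairs, for the genes higher (green) and lower (brown) in middle leaves. Points are medians, thick bars quartiles and thin bars the 5th to 95th percentiles over genes; by their medians, pairs 2 and 3 show the largest differences and pairs 4 and 5 the smallest.

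The calls rest unevenly on the bottom libraries. Without bottom replicate 2 or 3, 468 and 470 genes were called, and without both 15, whereas without bottom replicate 4 the count was 2503 and without replicates 4 and 5 together 3163. Without middle replicates 1, 2, 3 and 4 it was 828, 636, 969 and 929. Of the 1581 genes, 377 (23.8%) were called without each of the 10 libraries in turn, 267 of them higher and 110 lower, and 291 (18.4%) were called with the replicate block as well, 199 higher and 92 lower. A list kept by several fits of the same libraries is a description of their stability and not a further test.

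Of those 291 genes, the 3 with the highest mean CPM in each direction are described here, a choice made after their values were seen. Vigun11g172300 (chromosome 11, 37791962 to 37795210, plus strand, 10 exons) stood at 2535, 2819, 2737, 1851 and 2229.7 CPM in middle leaves, against 377, 344, 557, 1484 and 503 CPM in bottom leaves. The groups did not overlap, and bottom replicate 4 lay nearest to the middle libraries (log2 fold change 1.9, SE 0.44, adjusted p = 0.0115; 0.0419 with the block). Exons of this gene overlap those of a model on the opposite strand and the sources used here do not say whether counting used the strand, so reads of the 2 models may be mixed. Vigun05g229500 (chromosome 5, 42285632 to 42291201, minus strand, 3 exons) was at 722, 598, 747, 671 and 637 CPM in middle libraries and 379, 209.6, 305, 501 and 408 CPM in bottom libraries. All middle libraries lay above all bottom ones (log2 fold change 0.9, SE 0.21, adjusted p = 0.0107; 0.0483 with the block). Vigun08g198400 (chromosome 8, 36386112 to 36389606, plus strand, 4 exons) was at 518, 400.4, 435, 519 and 456 CPM in middle libraries and 201, 164, 147, 323 and 279 CPM in bottom libraries. It varied little among middle leaves, and its groups were apart (log2 fold change 1.06, SE 0.19, adjusted p = 0.00274; 0.0317 with the block).

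In the other direction, Vigun05g102000 (chromosome 5, 10136714 to 10149033, minus strand, 7 exons) stood at 186, 144, 172, 126 and 123 CPM in middle leaves, against 374, 296, 372, 247 and 211 CPM in bottom leaves. Its log2 fold change was -1 (SE 0.21, adjusted p = 0.00605; 0.0193 with the block), with the groups apart. Vigun07g142400 (chromosome 7, 25287635 to 25290711, minus strand, 5 exons) was at 145, 93.3, 147, 126 and 118 CPM in middle libraries and 335, 279, 350.1, 188 and 196 CPM in bottom libraries. It was lower in each middle library than in any bottom one (log2 fold change -1.1, SE 0.21, adjusted p = 0.00474; 0.0278 with the block). Vigun09g134100 (chromosome 9, 29362209 to 29366207, plus strand, 3 exons) was at 111, 77.1, 123, 97.3 and 101 CPM in middle libraries and 222, 176, 249.9, 135 and 158 CPM in bottom libraries (log2 fold change -0.89, SE 0.2, adjusted p = 0.00949; 0.0266 with the block). Single genes were followed in 20 alternatives, not in the block fits without 1 pair, of which that without pair 1 called 1 gene in all. The 6 genes were also picked for keeping their calls without each library in turn and with the block. Among the 20, only the fit without bottom replicates 2 and 3 together, which left 3 bottom libraries, ended the calls of these 6 genes. Its log2 fold changes kept their direction and were 1.63 for Vigun11g172300 (adjusted p = 0.18), 0.65 for Vigun05g229500 (0.19), 0.8 for Vigun08g198400 (0.071), -0.89 for Vigun05g102000 (0.11), -0.93 for Vigun07g142400 (0.098) and -0.76 for Vigun09g134100 (0.14).

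The CPM ranges of the 2 groups did not overlap, with middle higher, in 1075 tested genes (5.3%) and, with middle lower, in 678 (3.34%). Among the called genes this held for 695 of the higher ones and 321 of the lower ones. Of these, 736 reached a mean of 5 CPM, and the 2 with the steepest change and the 2 with the most counts in each direction are given next.

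Among these genes the steepest rise was that of Vigun02g136100 (chromosome 2, 28578894 to 28583520, minus strand, 11 exons), at 10.2, 8.5, 53.7, 29.3 and 4.35 CPM in middle leaves and 0.0829, 0.124, 0.226, 0.308 and 0 CPM in bottom leaves. The middle libraries differed among themselves more than 10-fold, and still none came near the bottom libraries (log2 fold change 7.16, SE 2.22, adjusted p = 0.0461; 0.00138 with the block). Its call in the fit of all libraries ended without any 1 of the middle and bottom R1 libraries other than middle replicate 5 (adjusted p = 0.054 to 0.12), and the log2 fold change was 6.46 without middle replicate 3. Top R1 leaves had 0.174, 16.6, 0.15, 0 and 0.0895 CPM of it, and top over middle did not pass (log2 fold change -2.67, SE 1.63, adjusted p = 0.273). At R3 its means were 46.1 ± 85.6 CPM in middle libraries and 17.2 ± 31.9 CPM in bottom libraries, which did not pass either (adjusted p = 0.536). Vigun03g404200 (chromosome 3, 61127941 to 61131815, minus strand, 14 exons) stood at 20.5, 16.1, 11.5, 4.37 and 3.07 CPM in middle leaves and at 0, 0.062, 0, 0.231 and 0.105 CPM in bottom leaves. Its log2 fold change was 6.94 (SE 1.22, adjusted p = 0.00274; 0.0162 with the block), and 7.58 without bottom replicate 4. Top R1 leaves had 21 to 55.5 CPM of it, above every middle R1 library, while the test of top over middle did not pass (adjusted p = 0.149).

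Among those lower in middle leaves, Vigun06g128300 (chromosome 6, 25495229 to 25495870, minus strand, 1 exon) had the steepest change. It had 0 counts in middle replicates 1 to 4 and 0.427 CPM in middle replicate 5, against 8.54, 56.8, 18.9, 3.93 and 1.58 CPM in bottom leaves. The groups did not overlap, and the size rests on the 1 middle library with counts (log2 fold change -7.61, SE 1.7, adjusted p = 0.0097; 0.0262 with the block). The fitted value was -10.9 without middle replicate 5 and -6.47 without bottom replicate 2. At R3 the gene stood at 4.5 ± 5.31 CPM in middle libraries and 33.2 ± 20.1 CPM in bottom libraries, which did not pass (adjusted p = 0.0758). Vigun08g210900 (chromosome 8, 37267836 to 37275991, minus strand, 8 exons) was at 2.03, 0.859, 1.74, 1.43 and 0.939 CPM in middle libraries and 9.87, 77.3, 94, 9.54 and 7.53 CPM in bottom libraries. Bottom replicates 2 and 3 stood far above the other bottom libraries, all of which lay above the middle ones (log2 fold change -4.8, SE 0.81, adjusted p = 0.00274; 0.0308 with the block). The value was -4.2 without bottom replicate 3 and -4.12 with the block.

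By level, Vigun07g296000 (chromosome 7, 40641707 to 40644356, plus strand, 7 exons) had the highest mean CPM of the higher genes with ranges apart. It stood at 9145, 7855, 8100.3, 5756 and 7286 CPM in middle leaves, against 788, 30.8, 37.1, 2752 and 547 CPM in bottom leaves. Middle libraries were alike, while bottom libraries spread from 30.8 to 2752 CPM, all below them (log2 fold change 3.2, SE 0.93, adjusted p = 0.0347). The call ended with the block (log2 fold change 4.71, adjusted p = 0.0697), in the 2 groups alone (0.093) and without any 1 of middle replicates 1 to 4 or bottom replicates 1, 2, 3 and 5 (0.051 to 0.088), and the log2 fold change was 4.44 without bottom replicate 4. Vigun11g181300 (chromosome 11, 38485436 to 38488718, plus strand, 6 exons) was at 6065, 6822, 5918, 4609 and 3625 CPM in middle libraries and 3487, 885, 1418, 2816 and 2668 CPM in bottom libraries. The lowest middle library lay close above the highest bottom one (log2 fold change 1.26, SE 0.34, adjusted p = 0.0257). This call ended with the block (adjusted p = 0.11), with a replicate block within each stage in all groups (0.059) and in the 2 groups alone (0.082). It also ended without middle replicate 1, 2 or 3 (0.055, 0.067 and 0.05) or bottom replicate 2 or 3 (0.079 and 0.088).

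The 2 lower genes with ranges apart and the highest mean CPM changed less than 2-fold. Vigun09g013900 (chromosome 9, 1023138 to 1025264, plus strand, 5 exons) was at 1879.9, 1039, 1513, 1345 and 1138 CPM in middle libraries and 2782, 2071, 2732, 1930 and 2012 CPM in bottom libraries. The highest middle library lay just under the lowest bottom one (log2 fold change -0.74, SE 0.21, adjusted p = 0.0295). The call ended with the block (adjusted p = 0.0725), in the 2 groups alone (0.074) and without middle replicate 2, 4 or 5 (0.086, 0.059 and 0.059) or bottom replicate 1, 2 or 3 (0.068, 0.055 and 0.093). Vigun07g086100 (chromosome 7, 13029458 to 13032760, plus strand, 2 exons) was at 1101, 748, 1077, 1002 and 973 CPM in middle libraries and 2004, 1746, 2269, 1176 and 1566 CPM in bottom libraries. Bottom replicate 4 again stood nearest to the middle libraries (log2 fold change -0.84, SE 0.19, adjusted p = 0.0107), and the call ended with the block (adjusted p = 0.0686) and in the 2 groups alone (0.051). Per length, the mean level of Vigun07g296000 was 3924 CPM per kb in middle libraries and 428 CPM per kb in bottom libraries, and that of Vigun09g013900 was 1540 CPM per kb in middle libraries and 2567 CPM per kb in bottom libraries. The more abundant of these 2 genes was thus Vigun07g296000 in middle leaves and Vigun09g013900 in bottom leaves.

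**Figure D4:**
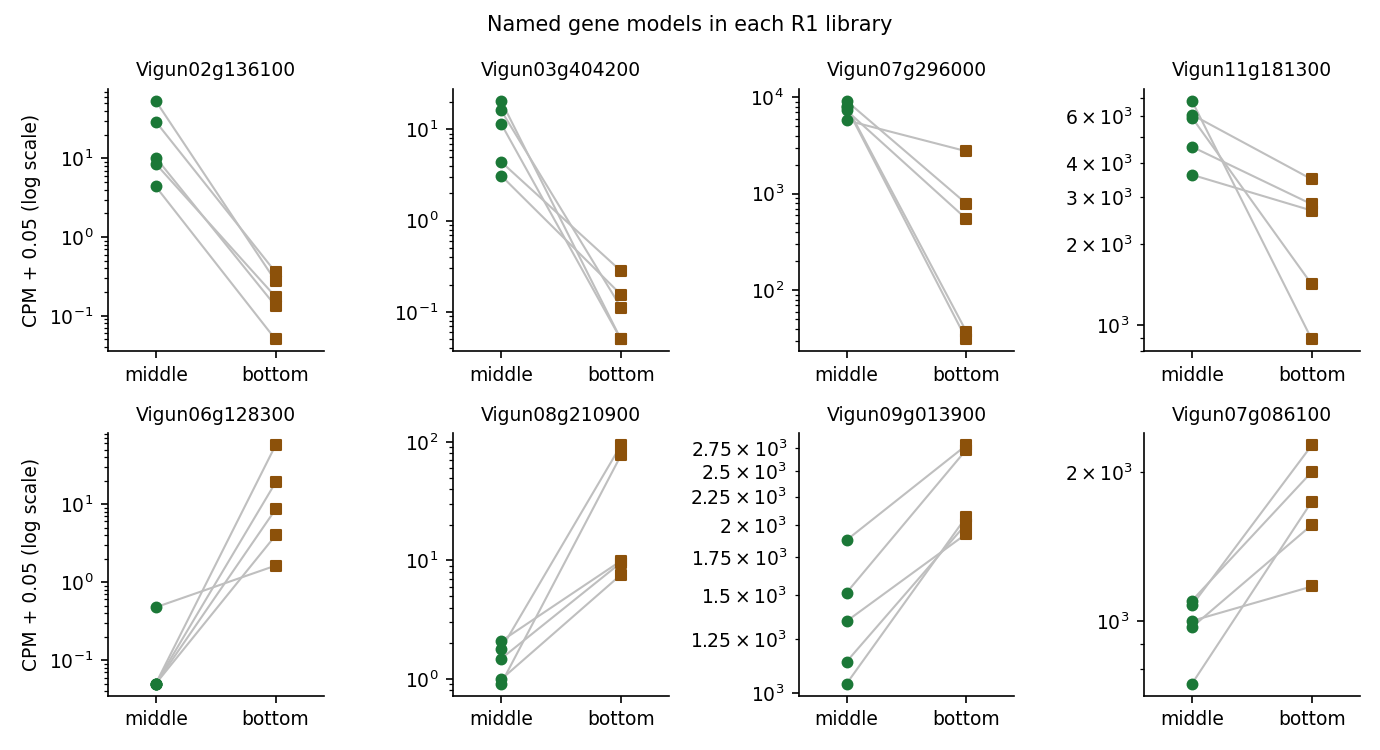
Levels of the 8 gene models with the steepest changes or most counts, in CPM with 0.05 added, on a log axis of its own for each gene. Circles are the 5 middle and squares the 5 bottom libraries at R1, with lines joining equal replicate numbers. The upper 4 genes are higher and the lower 4 genes lower in every middle library than in any bottom library, which the rule that chose them required.

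Some genes had counts in only 1 of the 2 groups. Of the genes called higher, 23 had 0 counts in every bottom library, and 12 of these had a count in all 5 middle libraries. Over all tested genes, 101 had 0 counts in every bottom library and 18 in every middle library. The levels of the 23 were low, with middle means of 0.12 to 4.39 CPM and a median of 0.617 CPM. The most abundant, Vigun10g074100 (chromosome 10, 19475929 to 19484520, plus strand, 7 exons), had 6.01, 12.3, 1.98, 0.795 and 0.854 CPM in middle leaves, 254 counts in all, against 0 counts in bottom leaves. Taking 3 counts in the bottom group as a whole as the floor (0.0409 CPM), it was at least 102-fold higher in middle leaves (adjusted p = 0.00788; 0.0345 with the block), and at least 60.9-fold higher without middle replicate 2. Top R1 leaves had 19.5 to 36.7 CPM of it, above every middle R1 library, and the test of top over middle did not pass (adjusted p = 0.0746). In the other direction 1 called gene, Vigun05g269100 (chromosome 5, 46053979 to 46056089, plus strand, 4 exons), had 0 counts in every middle library, against 0.166, 2.05, 2.72, 0.077 and 0.158 CPM in bottom leaves, 75 counts in all. By the pooled counts of the group it was at least 20.7-fold lower in middle leaves, against a floor of 3 counts in the middle group (0.0494 CPM), and at least 13.1-fold lower without bottom replicate 3. Most of the bottom level came from replicates 2 and 3, and the other bottom libraries lay near the floor. Without both replicates the gene had a log2 fold change of -3.92 (adjusted p = 0.45 in edgeR). Its call (adjusted p = 0.0249) ended with the block (0.0648), in the 2 groups alone (0.086), with a block within stage (0.068) and without middle replicate 1 or 2 (0.053 and 0.056) or bottom replicate 2 or 3 (0.068 and 0.078). Both genes were singled out after their values were seen, and the floors cover counting error only.

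At R3 the same comparison called more genes, 2593 higher (12.8%) and 1977 lower (9.75%) in middle leaves. The libraries of the 2 stages are distinct but share 1 fit. Of the 1015 genes higher at R1, 1002 (98.7%) had a fold change of the same sign at R3, with a median log2 fold change of 1.35 there. Of the 566 lower genes, 565 (99.8%) had the same sign, with a median of -0.72. Over all tested genes, 80.2% had the same sign at both stages. The difference between the stages in the middle to bottom change was tested as an interaction, and 0 genes (0%) passed in edgeR. At an unadjusted p under 0.05 there were 927 genes (4.57% of those tested), as a pooled count no more than chance gives at that limit. That count was 1110 with DESeq2 and 683 to 1477 in edgeR when 1 library was left out. It held 158 of the 1015 higher genes (15.6%) and 17 of the 566 lower genes (3.0%). Choosing these genes on their R1 difference favours such an interaction, so the 2 shares are a description. DESeq2 called 9 genes. Vigun08g198400 stood at 552 ± 35.6 CPM in middle libraries and 197 ± 37.6 CPM in bottom libraries at R3 (a log2 fold change of 1.49, with SE 0.19, adjusted p = 1.49e-05). Vigun07g142400 was at 110.4 ± 15.8 CPM in middle libraries and 237 ± 89.8 CPM in bottom libraries at R3 (a log2 fold change of -1.1, with SE 0.21, adjusted p = 0.000657). Vigun10g074100 did not pass at R3, at 3.9 ± 3.35 CPM in middle libraries and 0.716 ± 0.965 CPM in bottom libraries (adjusted p = 0.0923).

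The genes called at R1 were also followed through the whole canopy, as the mean over genes of log2(CPM + 0.5) after centring each gene on the 30 libraries. For the genes higher in middle leaves, this mean was 0.72 to 1.08 in top R1, -0.03 to 0.6 in middle R1 and -1.31 to -0.48 in bottom R1 libraries. The 3 positions did not overlap, which between middle and bottom R1 the choice of the genes on these libraries favours. The R3 libraries entered the choice of the genes only through the shared filter, scaling and dispersion. There the mean was 0.58 to 0.97 in top, -0.43 to 0.58 in middle and -1.39 to -0.8 in bottom libraries. Top and middle leaves met at 0.58 and bottom leaves were apart from both. For the genes lower in middle leaves, the mean was -0.65 to -0.43 in top R1, -0.39 to -0.15 in middle R1 and 0.15 to 1.07 in bottom R1 libraries. At R3 the ranges were -0.7 to -0.37 in top, -0.37 to 0.12 in middle and 0.45 to 1.05 in bottom libraries.

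In both lists the group mean of top leaves lay beyond that of middle leaves. The genes were chosen for their middle to bottom difference at R1, which favours a larger step there, so the sizes of the 2 steps are a description and not a result. The median log2 fold change of the higher genes was 1.19 for middle over bottom and 0.38 for top over middle at R1, and that of the lower genes -0.77 and -0.21. Both comparisons also share the middle R1 libraries. Over all tested genes, top over middle at R1 called 1379 genes higher (6.8%) and 944 lower (4.65%) in top leaves, more than the 1015 and 566 of middle over bottom. Of the genes described above, Vigun09g013900 stepped at both places, with 797 ± 112 CPM in top, 1383 ± 333 CPM in middle libraries and 2305 ± 416 CPM in bottom libraries at R1 (top over middle log2 fold change -0.8, SE 0.21, adjusted p = 0.0167). So did Vigun05g102000, with 84.7 ± 27.5 CPM in top, 150.1 ± 27.7 CPM in middle libraries and 299.9 ± 73.3 CPM in bottom libraries (top over middle -0.83, SE 0.2, adjusted p = 0.014). Vigun07g142400 did too, with 76.4 ± 12.2 CPM in top, 126 ± 22 CPM in middle libraries and 269.7 ± 75.9 CPM in bottom libraries (top over middle -0.72, SE 0.21, adjusted p = 0.0308). Of these genes, Vigun09g013900 lost its middle to bottom call with the block, as given above. Vigun05g229500 had 633 ± 75.1 CPM in top, 675 ± 60.8 CPM in middle libraries and 361 ± 109.7 CPM in bottom libraries, and its top over middle difference was within the spread and did not pass (log2 fold change -0.09, SE 0.2, adjusted p = 0.797).

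**Figure D5:**
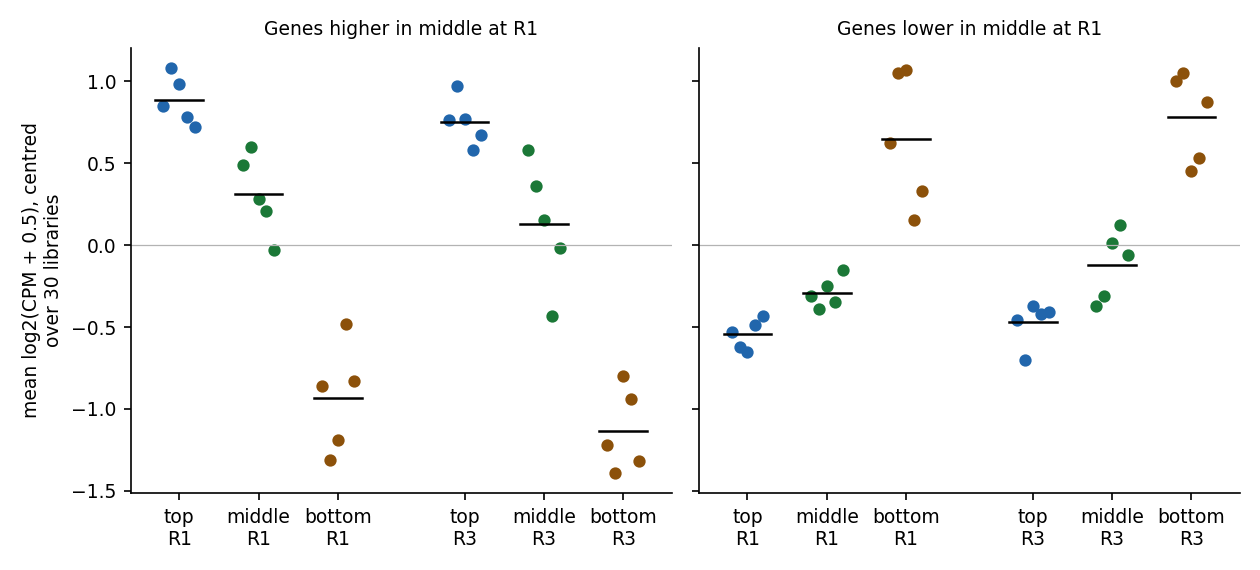
Mean over genes of log2(CPM + 0.5), centred over the 30 libraries (vertical axis), for the 1015 genes higher (left) and the 566 genes lower (right) in middle than in bottom leaves at R1, in each library of the 6 groups; lines are group means. Group means of middle leaves lie between those of top and bottom leaves at both stages; the genes were chosen for the distance of middle from bottom leaves at R1, which the plot therefore shows as wide.

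Called genes were spread over all 11 chromosomes. Between 3.48% (chromosome 11) and 5.69% (chromosome 1) of a chromosome's tested genes were higher, and between 1.61% (chromosome 4) and 3.43% (chromosome 2) were lower. The contigs not placed on a chromosome stood apart in this description, with 42 of 221 tested genes higher (19.0%) and 0 lower, or 39 higher and 3 lower with library size alone. One of them, contig_3, singled out after its values were seen, held 17 higher genes of 57 tested (29.8%), between 41452 and 459453. Fold changes were above 0 in 50 of its 57 tested genes, with a median log2 fold change of 0.83 against -0.02 over all tested genes, and with library size alone in 46 genes, with a median of 0.64 against -0.21. The 17 genes had log2 fold changes of 0.94 to 2.58, 12 of them had 1 exon, 11 had CPM ranges that did not overlap, and 5 were called with the replicate block. The summed level of the tested contig_3 genes was 1077, 1050.2, 1051, 966 and 815 CPM in middle leaves and 773, 342, 475, 931 and 579.7 CPM in bottom leaves, and bottom replicate 4 lay above middle replicate 5. What these models encode is not given in the files, reads may be shared between near-identical copies, and without bottom replicates 2 and 3 none of them was called, when 15 genes were called in all. In that fit 43 of the 57 fold changes were still above 0, with a median log2 fold change of 0.57 against 0 over all tested genes.

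Neighbouring genes were called in the same direction more often than genes at large, which is given as a description with no test. After a higher gene, the next tested model was also higher in 7.33% of cases, against 4.99% of all next models, and after a lower gene it was lower in 5.3%, against 2.8%. Runs of 3 or more neighbours in 1 direction were few: 6 of 3 genes and 1 of 4 genes among the higher, and 2 of 3 genes among the lower. The run of 4 lay on chromosome 7 between 26504530 and 26532878, reaching over Vigun07g153800 and Vigun07g154200 at its ends, with gene means of 1.59 to 204 CPM in middle and 0.273 to 119.6 CPM in bottom leaves and log2 fold changes of 0.77 to 2.48. Neighbours may be near-identical copies that share reads, which was not tested.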

How the data were processed

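Leaf RNA of 30 cowpea libraries was sequenced, 5 in each of 6 groups. Per the labels' protocols, a MagMAX kit yielded the RNA and a Kapa HyperPrep mRNA kit the libraries. The tools listed, with no version, are HISAT2, featureCounts and DESeq2, per the submitters' processing notes. Neither a build of the genome nor a strand setting is given in the sources used here. The authors deposited raw counts per gene, which all tests used, and a second table of counts normalized by the authors, a signal not used here.

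Low counts were filtered with filterByExpr, at its defaults and by group. After TMM scaling, edgeR 4.0.16 (quasi-likelihood, under R 4.3.3) took all 6 groups together, with 24 residual degrees of freedom. The paired fit took the 10 libraries with the replicate number as a block (4 residual degrees of freedom). Equal numbers were taken as pairs because all 5 correlations of their deviations exceeded 0.1 (0.19 to 0.52, from the data and not from the labels; middle replicate 3 correlated more with bottom replicate 1, at 0.26). Between replicates, chi-square per degree of freedom was 29.6 to 131 over genes with at least 20 counts, far above sampling noise, so none was a copy of another. Standard errors are the log2 fold change over the square root of F. The fit was tested on simulated data. Figures were drawn with matplotlib 3.10.9.

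Named genes followed a rule: of the called genes that averaged 5 CPM or more and whose CPM ranges were apart, the 2 with the largest fold change and the 2 with the highest mean CPM in each direction. The comparison, the rule and the lists were chosen with earlier results of these data known. Of the identifiers, 0 matched the RefSeq table used (assembly ASM411807v2), so the gene lists and cell type markers drawn up by product name were not analysed here and no sequence is printed. Exons of 1084 gene models overlap another model, and Vigun11g172300 is such a model among the named genes. Alternatives were other scalings, no filter, DESeq2 1.42.0, other sets of libraries and blocks, and leaving out each library.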

Additional observations from a re-analysis of the deposited data

Results flagged for a closer look

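In 56 sets of 5 libraries, 1 library was compared with the rest by the ratio of its gap to the range (limit 0.71), and 4 stood apart. The limit lets about 1 in 20 sets stand apart by chance if values follow a normal distribution, which CPM of chosen genes need not do. The sets of Vigun10g074100 in bottom and Vigun05g269100 in middle R1 libraries held only 0 and could not stand apart. The number that stood apart is therefore not compared with chance. Vigun06g128300 had 0.427 CPM in middle R1 replicate 5 and 0 in the other middle R1 libraries, a set in which any count stands apart. Vigun07g296000 had 2752 CPM and Vigun11g172300 had 1484 CPM in bottom R1 replicate 4, far above the other bottom R1 libraries. The mean centred log2 level of the genes lower in middle leaves was -0.7 in top R3 replicate 2, below the other top R3 libraries.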

How the results depend on the processing

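For middle versus bottom leaves at R1, 1581 genes (1015 higher, 566 lower) became 2650 with library size alone (1861 lower), 2570 with DESeq2 (1050 lower), 882 in the 2 groups alone with no replicate block (499 higher) and 667 higher with the replicate block. At 2-fold there were 828, 604 higher and 224 lower. Leaving out 1 library gave 468 to 2503 genes, 312 to 1571 higher and 136 to 932 lower. Without bottom replicates 2 and 3 it gave 15, 12 higher and 3 lower, and without bottom replicates 4 and 5 it gave 3163, 1855 higher and 1308 lower; both choices were made after seeing the data. Counts stayed within 1.5 times with DESeq2 size factors in edgeR (1634), no filter (1284), a block within stage (1677) and the 3 R1 groups alone (1989). The interaction of position with stage gave 0 genes, 1 with library size alone (1 lower), 9 with DESeq2 (6 higher, 3 lower) and 0 to 1 when 1 library was left out, the 1 being lower and arising without middle R3 replicate 4.

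With the replicate block, 1271 genes became 2080 with library size alone (1294 lower), 3404 with DESeq2 (1908 higher, 1496 lower), 882 with no block (383 lower) and 1, 43, 52, 415 and 1794 without pairs 1 to 5 (1, 31, 43, 281 and 866 higher; 0, 12, 9, 134 and 928 lower), all but the fit with no block chosen after seeing the data. Among the named genes the block ended the calls given with it above and no other. Signs of single genes were not followed in the block fits with library size alone, with DESeq2 or without 1 pair. In the 20 alternatives where they were, no named gene changed sign, and of the 1581 genes 2 did so, both without bottom replicates 2 and 3. All named calls ended in that fit, which left 3 bottom libraries (adjusted p = 0.067 to 0.45), and that of Vigun02g136100 also without the filter (0.057) and without bottom replicates 4 and 5 (0.097). The causes were not tested. The alternatives for the gene lists were not run, since the identifiers carry no names. At these depths 3 counts over 5 libraries are worth 0.0494 CPM for the middle group and 0.0409 CPM for the bottom group. A gene with 0 counts in a group may still have a level below that.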
